A study of Homo sapiens with 12 samples.

Results

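The named antisense RNAs were genes annotated as antisense whose name ends in -AS, alone or followed by a number, as in KMT2E-AS1. Such a gene is transcribed from the DNA strand opposite to a known gene, the sense gene, whose name it carries. Every row of the 3 deposited tables of listed genes, 1 table per cell line, was taken if it had this biotype and this form of name. The rule used no measured value. It gave 125 of 3158 rows, which were 122 of 3090 distinct genes. MCF-10A held 114 of 2680 rows, MDA-MB-231 held 7 of 381 and LM2 held 4 of 97.

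The study asked how transit through capillary-sized constrictions changed gene expression. MDA-MB-231 cells derive from a triple negative breast cancer, LM2 cells are a lung metastatic derivative of them, and MCF-10A cells are breast epithelium of a non-malignant origin. For each line, 2 libraries came from cells collected after transit through channels 5 µm wide, 5 µm high and 150 µm long at 7 to 33 cmH2O (constriction), and 2 came from untransited cells of the same line (control), 12 libraries in all. The labels name no genetic change and no added agent for any group. The study's methods describe its MCF-10A line as tagged for PCNA, a DNA replication protein, a tag that both MCF-10A groups would share. MDA-MB-231 and LM2 shared one culture medium, and MCF-10A grew in another that holds horse serum, insulin, epidermal growth factor, cholera toxin and hydrocortisone.

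Antisense RNAs are mostly non-coding, are often made at a low level, and many begin at or near the start of the gene they oppose. Some act on the chromatin or the transcript of that gene in cis, others act elsewhere, and for most no function is known. Well-known examples come from the HOX clusters, the gene clusters of positional identity, which are transcribed from both strands. The names below give the sense gene, and a role stated for the sense gene is not a role of its antisense RNA.

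The libraries held from 29978695 to 53584754 reads, and the deposited size factors lay between 0.788 and 1.27. TMM factors of the listed genes, times the library totals, set the 2 MCF-10A constriction libraries far apart, at 6.24 and 0.243 relative to the geometric mean of the 4 libraries, against 0.789 and 0.836 for the controls. All listed genes had been selected by the study for a difference between constriction and control on these same libraries, so counts of calls and of groups that do not overlap describe the selection as well as the cells, and they are given beside the same share over all listed genes. With 2 libraries against 2, an exact permutation test cannot give a p below 0.333 for a single gene. Of 19 cell type markers, 2 were listed in MCF-10A, the epithelial keratin gene KRT19 and the endothelial gene PECAM1, and none in the other lines, so most defining markers had no value in these tables. KRT19 had 5 and 21 reads and PECAM1 71 and 48 in the MCF-10A controls, and neither had any after transit. In bulk RNA of this kind, fewer cells that make a transcript and less of it per cell cannot be told apart. The study's supplement also records unlike cell concentrations and RNA amounts for transited and untransited cells. An effect of these on the counts was not tested. Whether the libraries could tell a read of an antisense RNA from a read of its sense gene was not stated, because the protocol names both a directional and a non-directional preparation.

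Among the 990 named antisense genes of the GENCODE 29 annotation, the share listed was 11.5% for MCF-10A, 0.707% for MDA-MB-231 and 0.404% for LM2. For the 19951 protein-coding genes, the shares were 5.96%, 0.722% and 0.155%. Antisense genes without an -AS name, of which 4593 are annotated, were listed at 8.93%, 1.24% and 0.327%. Over all 58780 annotated genes, the shares were 4.56%, 0.648% and 0.165%. Annotated genes are counted here whether or not they had reads, and the shares were not tested.

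In MCF-10A, 110 of the 114 members had a sense gene annotated under the same name, and all 110 sense genes were protein coding. Of these 110 members, 48 overlapped their sense gene head to head, so that both transcripts start inside the shared stretch, which is 43.6% against 28.1% of the 972 named antisense genes with an annotated sense gene in GENCODE 29. A further 29 members (26.4% against 48.0%) lay within the sense gene, 22 (20.0% against 15.8%) overlapped it tail to tail, 7 (6.36% against 3.19%) were divergent without overlap and 4 (3.64% against 4.63%) spanned it. In 34 members (30.9% against 17.1%), the antisense and sense starts were at most 1000 bases apart. All members had reads in the MCF-10A controls, whereas the annotated set holds genes whether or not they had reads. These shares are descriptions, and they were not tested.

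**Figure D1:**
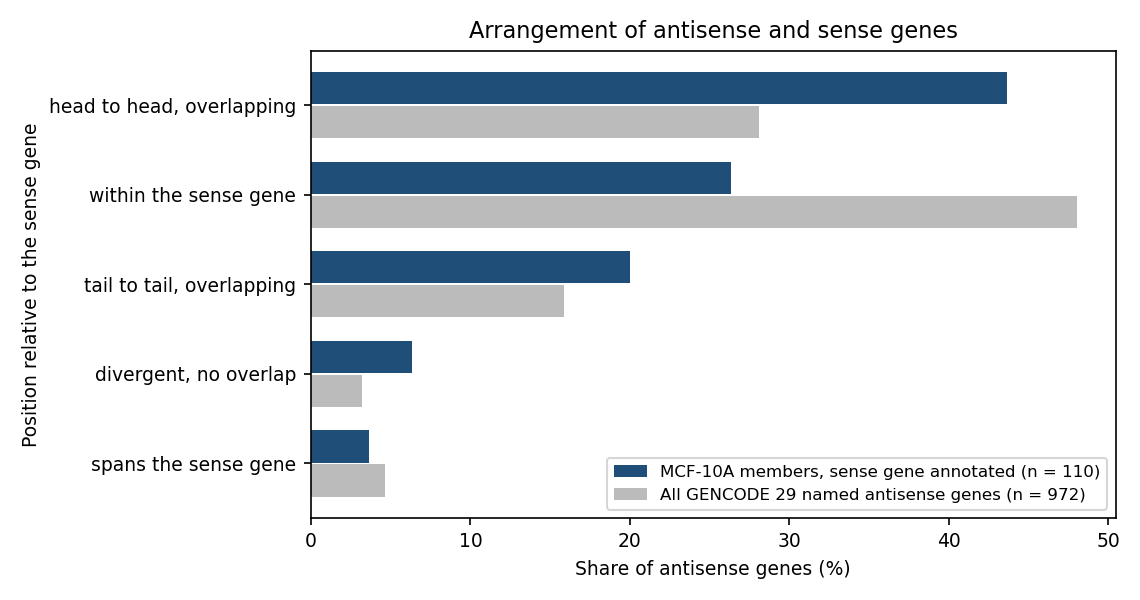
Share of antisense genes (%) in each position relative to the sense gene, for the 110 MCF-10A members with an annotated sense gene (dark bars) and for all 972 such genes of GENCODE 29 (grey bars). Head to head overlap was the most frequent arrangement among the members at 43.6%, and position within the sense gene was the most frequent among all annotated genes at 48.0%.

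Promoter sequences were available for 79 of the 114 MCF-10A members. Of these, 46.8% held a GC box, spelled GGGCGG or CCGCCC on the reverse strand and bound by SP family factors, compared with 45.0% of 35116 promoters of all genes and 34.0% of those of all named antisense genes. TATAAA on either strand was found in 3.80% of the members' promoters and in 7.33% of all promoters. The median GC content was 62.7% in members, 58.7% over all promoters and 54.7% over named antisense genes. The comparison sets hold genes whether or not they had reads in these libraries, and no promoter share was tested. The 5 promoters printed here belong to members described below: KMT2E-AS1 and FAM222A-AS1, which were listed in 2 lines, DICER1-AS1 and TGFB2-AS1, which start close to their sense genes, and NAPA-AS1, which had most reads after transit. Each holds 250 bases before the RefSeq start and 50 after it, from GRCh38.p14, written 5′ to 3′ on the strand of the antisense RNA with any GC box in capitals.
KMT2E-AS1, chr7:105014092-105014391, minus strand: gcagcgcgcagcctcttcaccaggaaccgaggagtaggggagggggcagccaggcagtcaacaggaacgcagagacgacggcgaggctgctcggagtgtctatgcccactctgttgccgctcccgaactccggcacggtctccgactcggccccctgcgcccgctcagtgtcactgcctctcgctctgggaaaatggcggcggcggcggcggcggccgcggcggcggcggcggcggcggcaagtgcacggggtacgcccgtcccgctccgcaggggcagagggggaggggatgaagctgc
DICER1-AS1, chr14:95157438-95157737, plus strand: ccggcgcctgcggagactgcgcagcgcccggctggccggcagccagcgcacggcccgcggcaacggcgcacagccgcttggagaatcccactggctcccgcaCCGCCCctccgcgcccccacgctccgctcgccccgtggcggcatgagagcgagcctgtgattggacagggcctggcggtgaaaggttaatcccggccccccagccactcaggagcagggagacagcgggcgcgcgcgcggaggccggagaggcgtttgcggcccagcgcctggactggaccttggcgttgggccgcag
TGFB2-AS1, chr1:218345629-218345928, minus strand: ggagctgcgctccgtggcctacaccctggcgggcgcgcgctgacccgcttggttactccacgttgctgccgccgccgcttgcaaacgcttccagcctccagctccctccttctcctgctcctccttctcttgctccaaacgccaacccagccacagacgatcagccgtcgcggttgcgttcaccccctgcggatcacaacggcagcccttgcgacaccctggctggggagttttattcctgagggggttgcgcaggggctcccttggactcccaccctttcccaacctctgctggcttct
FAM222A-AS1, chr12:109773438-109773737, minus strand: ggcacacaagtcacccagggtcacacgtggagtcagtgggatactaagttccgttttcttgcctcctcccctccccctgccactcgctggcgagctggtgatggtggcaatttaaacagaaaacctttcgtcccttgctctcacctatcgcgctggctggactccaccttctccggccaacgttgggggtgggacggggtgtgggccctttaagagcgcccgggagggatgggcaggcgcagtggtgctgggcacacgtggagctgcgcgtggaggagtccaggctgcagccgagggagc
NAPA-AS1, chr19:47484032-47484331, plus strand: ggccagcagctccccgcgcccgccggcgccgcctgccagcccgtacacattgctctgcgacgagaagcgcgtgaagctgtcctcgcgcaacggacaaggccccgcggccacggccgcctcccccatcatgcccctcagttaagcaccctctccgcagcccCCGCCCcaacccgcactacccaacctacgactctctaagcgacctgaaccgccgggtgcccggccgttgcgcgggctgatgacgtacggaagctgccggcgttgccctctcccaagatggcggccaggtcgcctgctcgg

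In these sequences, DICER1-AS1 and NAPA-AS1 held 1 GC box each and the other three held none. The RefSeq start of KMT2E-AS1 lies 64 bases from that of KMT2E, and their promoter windows share 163 bases. For DICER1-AS1 the starts are 159 bases apart and the windows share 258 bases. By GENCODE 29, TGFB2-AS1 starts 557 bases from TGFB2 on the opposite strand and points away from it. RefSeq places the TGFB2 start 342 bases from that of TGFB2-AS1 on the other side, inside the antisense gene, and the promoter windows share no base. RefSeq places the start of KMT2E-AS1 180 bases from the GENCODE 29 start, which the counts follow.

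In MCF-10A, 113 of the 114 named antisense RNAs were lower after transit (99.1%, against 94.5% of all listed genes). Zero reads were counted for 112 of them in both constriction libraries (98.2%, against 89.6% of all listed genes). The constriction and control libraries did not overlap for 113 members (99.1%, against 96.8%). By edgeR's quasi-likelihood test, 112 members fell at an adjusted p under 0.05 (98.2%, against 86.9% of all listed genes), and no member rose. The background of the table was itself high, and nothing particular to the members is read from these shares. The unadjusted edgeR p did not become smaller as the control level rose. Its median was 9.73e-05 for the 18 members with a mean normalised control count under 10. For members at 20 or above, the median was 0.000379. An edgeR call therefore does not rank the members by their read support. The median log2 difference, computed on mean normalised counts plus 1 and taken as constriction minus control, was -4.10 for members, -4.05 for all listed genes and -3.83 for the 410 listed antisense genes without an -AS name.

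These calls need all 4 libraries. Leaving out any one of them left 0 of the 114 members called, with constriction replicate 1, constriction replicate 2, control replicate 1 or control replicate 2 removed, and 0 to 4 of the 2680 listed genes called. TMM factors also left 0 members and 0 listed genes called, although 113 members, and 2505 of the 2680 listed genes, had an unadjusted p under 0.05 with these factors. With the replicate number as a block, 78 members remained called (54.6% of all listed genes were). With the replicate numbers crossed, a pairing added after the data were seen, 0 members and 5 listed genes were called, and 111 members had an unadjusted p under 0.05. The blocked fit kept 7 of the 18 members with a mean normalised control count under 10, 48 of the 49 from 10 to under 20 and 23 of the 47 at 20 or above.

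Summed over the members, 590 and 11 reads were counted after transit, against 2695 and 2865 in the controls. NAPA-AS1 alone gave all 590 of the first and 10 of the second. Without it, the sums were 0 and 1 reads after transit against 2680 and 2855 reads in controls, or 0 and 0.0282 RPM (reads scaled to the total of each library) against 74.2 and 61.5 RPM. Thus 1 read, counted for AGAP2-AS1, was all that the other 113 members had in both constriction libraries.

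**Figure D2:**
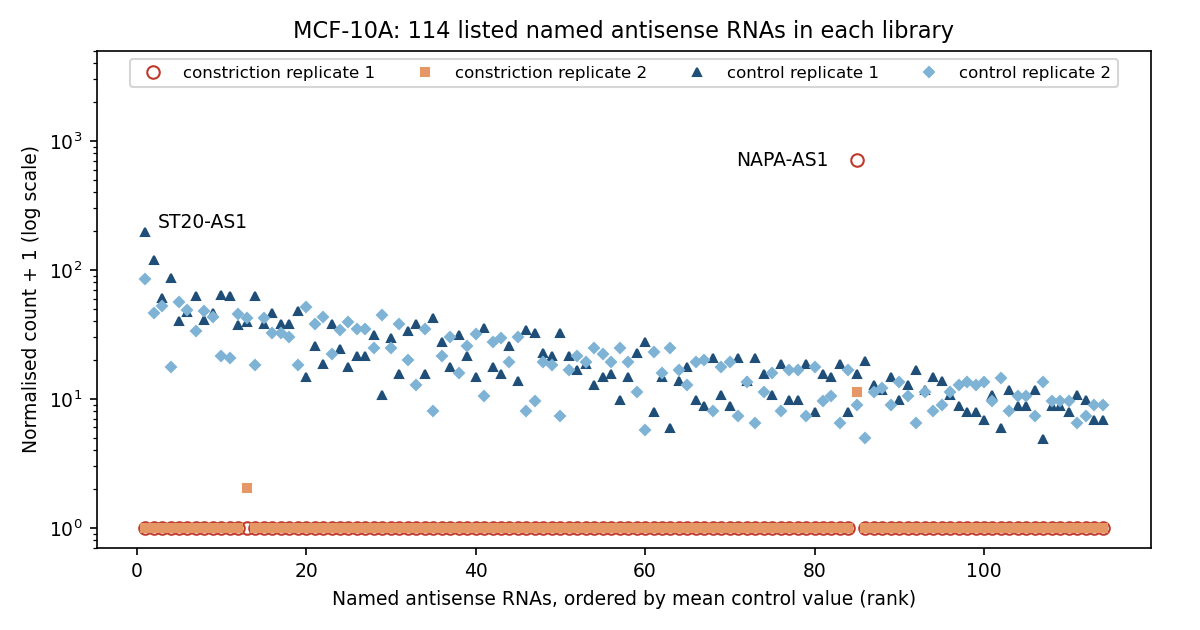
Normalised count plus 1 (log scale) of the 114 MCF-10A members in each of the 4 libraries, ordered along the x axis by mean control value. Both constriction libraries sit at 0 reads, drawn at 1, for 112 members; AGAP2-AS1 has 1 read in constriction replicate 2, and NAPA-AS1 stands at 590 reads in constriction replicate 1.

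Control levels were low. Reads per member ranged from 4 to 201 in control replicate 1 (median 15.5) and from 5 to 106 in control replicate 2 (median 20.5). The mean FPKM of controls, a level per length, ranged from 0.0172 to 2.44 with a median of 0.218, near the median of 0.251 over all listed genes. A count of 0 allows up to 3 reads in each library, so the 112 members at 0 reads were at least 2.05-fold to at least 41.7-fold lower after transit, with a median bound of 4.79-fold. The bound reached 5-fold for 54 members and 10-fold for 16. These bounds cover counting error only.

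The 2 control libraries differed from each other by more than 2-fold for 44 members and by more than 5-fold for 3, and the median ratio was 1.70. Control replicate 1 was the higher one for 56 of the 114 members. On the log2 scale across members, which are not independent replicates, the control libraries correlated at Pearson's r = 0.411 and Spearman's rho = 0.356, a description over 114 genes that share library and depth. The spread within controls was therefore large.

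**Figure D3:**
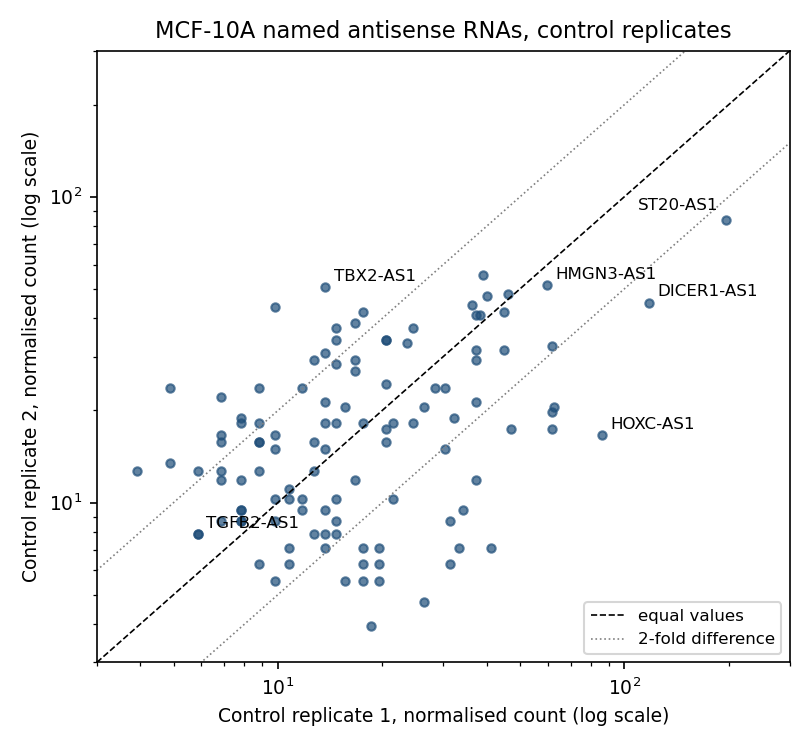
Normalised counts of the 114 MCF-10A members in control replicate 1 and control replicate 2, both on log scales; the dashed line marks equal values and the dotted lines a 2-fold difference. Outside the dotted lines lie 44 members, among them HOXC-AS1, DICER1-AS1, ST20-AS1 and TBX2-AS1.

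The most abundant member that was lower after transit was ST20-AS1 (chr15:79922771-79926993, plus strand), head to head with ST20. Control replicates 1 and 2 had 201 and 106 reads and neither constriction library had any, at least 41.7-fold lower. The log2 difference was -7.14 ± 0.58 (SE), or -6.40 without control replicate 1, and it did not pass the edgeR test (adjusted p = 0.125), whereas the adjusted p was 0.00224 with DESeq2, 0.0499 with limma and 1 with the replicate block. Its neighbour AC015871.3 on the opposite strand had 57 and 42 reads in controls and 0 after transit.

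DICER1-AS1 (chr14:95157645-95179933, plus strand) overlaps the first 366 bases of DICER1, the gene of the enzyme that cuts microRNA precursors. No read was counted after transit, against 120 and 57 in controls. It was at least 24.2-fold lower, with a log2 difference of -6.36 ± 0.64, or -5.52 without control replicate 1 (edgeR adjusted p = 0.0337), and the call was lost with limma (adjusted p = 0.0749) and with the replicate block (adjusted p = 1). HMGN3-AS1, opposite the gene of a nucleosome-binding protein, had control libraries that lay close together, at 61 and 65 reads, and 0 in both constriction libraries. Its bound was 16.5-fold and its log2 difference -5.82 ± 0.11 (edgeR adjusted p = 0.0143; 0.446 with the block).

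The next members by normalised count, HOXC-AS1 aside, showed the same division, with 0 reads in each constriction library. SUCLA2-AS1, within the gene of a subunit of the citric acid cycle enzyme succinyl-CoA synthetase, had 47 and 61 control reads. UBL7-AS1, divergent from the gene of a ubiquitin-like protein, had 40 and 70. IL20RB-AS1, within the gene of a receptor subunit for cytokines of the IL-20 family, had 46 and 53. ASH1L-AS1, opposite a histone methyltransferase gene, had 41 and 60, and CA3-AS1, opposite a carbonic anhydrase gene, had 63 and 41. Their bounds lay between 12.9-fold and 14.0-fold. All 5 fell by the edgeR test (adjusted p = 0.0143 each, 86.9% of all listed genes called), and none of the 5 stayed called with the replicate block (lowest adjusted p = 0.291, 54.6% of all listed genes called).

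Per length, HOXC-AS1 was the highest member in controls, at a mean of 2.44 FPKM, followed by SUCLA2-AS1 at 2.37 and IL20RB-AS1 at 2.15. These 3 levels differed by less than the spread between the control libraries of HOXC-AS1, which had 88 and 21 reads.

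The HOX clusters encode transcription factors that pattern the body axis. Of 9 annotated HOX cluster antisense RNAs in the list, 4 were listed in MCF-10A, and all 4 were at 0 reads after transit and fell by the edgeR test, as 89.6% and 86.9% of all listed genes were at 0 reads and called. HOXC-AS1 (chr12:53999022-54000010, minus strand) went from 88 and 21 reads in controls to 0, a log2 difference of -5.71 ± 0.96 (-4.14 without control replicate 1) and at least 15.3-fold. HOXA-AS3 had 16 and 26 control reads, HOXA10-AS had 12 and 13, and HOXB-AS1 had 8 and 11, with bounds of 5.38-fold, 3.27-fold and 2.46-fold. The blocked fit, with 54.6% of all listed genes called, kept 2 of the 4 calls, those of HOXA-AS3 (adjusted p = 0.0127) and HOXA10-AS (adjusted p = 0.0242). With DESeq2, HOXA10-AS (adjusted p = 0.0692) and HOXB-AS1 (0.110) lost their calls. HOXC-AS1 lost its call with limma (adjusted p = 0.317). HOXA7, which shares 1507 exon bases with HOXA-AS3 on the opposite strand, had 286 reads in constriction replicate 1 and 0 in the other 3 libraries. No HOX cluster antisense RNA was listed in MDA-MB-231 or LM2.

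TGFB2-AS1 (chr1:218344196-218345678, minus strand) starts next to the gene of transforming growth factor beta 2, a secreted regulator of epithelial growth and transition. With ALKBH3-AS1, it had the lowest mean normalised control count of the members, with 6 and 10 reads, and no read was counted after transit. The bound was therefore only 2.05-fold. Its log2 difference was -2.98 ± 0.18 (edgeR adjusted p = 0.0143), and the call was lost with DESeq2 (adjusted p = 0.141), limma (0.053) and the replicate block (0.114). It was the 1 listed gene of 5 annotated antisense RNAs in the list on epithelial to mesenchymal transition and transforming growth factor beta signalling.

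Of 7 annotated members in the list of antisense RNAs studied in cancer, FOXP4-AS1 and BDNF-AS were listed. FOXP4-AS1, opposite a forkhead transcription factor gene, had 25 and 47 reads in controls and 0 after transit (edgeR adjusted p = 0.0143; 0.0736 with the block). BDNF-AS, opposite the gene of brain-derived neurotrophic factor, had 35 and 12 reads in controls and 0 after transit. Its edgeR adjusted p was 0.0151, and 0.0407 with the block, and the call was lost with limma (adjusted p = 0.283). Their log2 differences were -4.99 ± 0.29 and -4.52 ± 0.78, the second -3.39 without control replicate 1. None of the 9 annotated antisense RNAs of extracellular matrix or adhesion genes in the list was among the MCF-10A genes.

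Members were also grouped by what their sense genes encode. These groups were drawn up after the values were seen and carry no test, are not complete, and every gene in them was at 0 reads after transit and was called in the edgeR fit, beside 89.6% at 0 reads and 86.9% called over all listed genes. The replicate block left 54.6% of all listed genes called. With it, 3 of 7 stayed called opposite chromatin regulators and 5 of 7 opposite growth factors and receptors. Opposite cytoskeleton, adhesion and matrix genes, 5 of 8 stayed called, and opposite repair, cohesion and cell cycle genes 3 of 5. The numbers were 2 of 5 opposite RNA processing genes and 3 of 4 opposite mitochondrial genes. Among the members named here, VIM-AS1 (adjusted p = 0.0917), TPM1-AS (0.262), JMJD1C-AS1 (0.0912) and SRRM2-AS1 (0.0617) lost their edgeR call with the block. The 7 opposite chromatin regulators included EP300-AS1 (9 and 20 control reads), KANSL1-AS1 (34 and 9) and JMJD1C-AS1 (9 and 8). Those opposite genes of growth factors, guidance factors and receptors also numbered 7, with EGFR-AS1 at 6 and 16 control reads, ACVR2B-AS1 at 22 and 13 and SEMA3F-AS1 at 15 and 13. A set of 8 opposed cytoskeleton, adhesion or matrix genes, with VIM-AS1, opposite the intermediate filament gene vimentin, at 38 and 37 control reads, TPM1-AS, opposite a tropomyosin gene, at 63 and 22, LAMC1-AS1, opposite a laminin gene, at 15 and 36 and ITGA6-AS1, opposite an integrin gene, at 7 and 21.

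The remaining groups were smaller. In the 5 opposite genes of DNA repair, telomeres, chromosome cohesion and the cell cycle, control reads were 17 and 37 for DDX11-AS1. For POT1-AS1 they were 20 and 8. Of 5 opposite RNA processing genes, DICER1-AS1 was the highest, and SRRM2-AS1 had 8 and 11 control reads. NDUFB2-AS1 and OPA1-AS1, in the group of 4 opposite mitochondrial genes with SUCLA2-AS1, had 9 and 23 and 8 and 15 control reads. Median log2 differences of all these groups lay between -4.41 for chromatin regulators and -3.37 for RNA processing, against -4.05 over all listed genes.

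For 4 of the 114 members (3.51%), the sense gene was listed in the same table, and in each pair both genes were at 0 reads after transit and fell by the edgeR test (89.6% of all listed genes were at 0 reads and 86.9% called). DCST1-AS1 (chr1:155045191-155046118, minus strand) lies within DCST1 and shares 33 exon bases with it. The antisense RNA had 18 and 53 reads in controls and DCST1 had 33 and 43. Their log2 differences were -4.94 ± 0.57 and -5.09 ± 0.03 (edgeR adjusted p = 0.0143 for both).

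PRKG1-AS1 (chr10:52230742-52314507, minus strand) overlaps the tail of PRKG1, the gene of a cyclic GMP-dependent protein kinase, with 169 exon bases in common. It had 5 and 17 control reads, and PRKG1 had 26 and 49. The bounds were 2.73-fold for the antisense RNA and 9.54-fold for the sense gene. MAMDC2-AS1 (chr9:70033921-70175888, minus strand) had 18 and 9 control reads, against 22 and 32 for MAMDC2, and the pair shares 304 exon bases. RUNDC3A-AS1 (chr17:44299574-44315315, minus strand) had 19 and 5 control reads, against 46 and 17 for RUNDC3A, with 225 exon bases in common. Per library, PRKG1-AS1 and PRKG1 were both higher in control replicate 2 and RUNDC3A-AS1 and RUNDC3A both in control replicate 1, while MAMDC2-AS1 and MAMDC2 went opposite ways. Without the higher control library, the log2 differences of the antisense RNAs were -4.22 for DCST1-AS1 and -2.56 for PRKG1-AS1 (control replicate 2 left out), and -3.02 for MAMDC2-AS1 and -2.31 for RUNDC3A-AS1 (control replicate 1 left out). Of these 4, DCST1-AS1 lost its call with the replicate block (adjusted p = 0.0668). With limma, adjusted p was 0.0995 for DCST1-AS1, 0.186 for MAMDC2-AS1, 0.690 for RUNDC3A-AS1 and 0.285 for PRKG1-AS1, and with DESeq2 the last 3 lost their call (adjusted p = 0.0698, 0.114 and 0.120).

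Exons of 87 of the 114 members (76.3%) overlapped exons of a gene on the opposite strand, where reads cannot be told apart unless the strand was kept. Both constriction libraries were at 0 reads for 85 of these 87 and for all 27 members without such overlap. The median control level was 0.186 FPKM in the first and 0.505 FPKM in the second. Calls by edgeR numbered 85 of 87 and 27 of 27. Over all listed genes, 89.6% were at 0 reads and 86.9% were called.

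Apart from the 4 sense genes, a listed gene lay within 1000 bases of 8 members. Of 9 such neighbours, 7 had 0 reads in both constriction libraries, among them ZNF497 beside A1BG-AS1 (94 and 51 control reads, 827 shared exon bases), CFAP70 beside DNAJC9-AS1 (29 and 11) and LINC01004 beside KMT2E-AS1 (7 and 15). HOXA7, described above, and AC074212.1 beside DM1-AS, with 1 read in constriction replicate 2, were the exceptions.

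AGAP2-AS1, within the gene of a GTPase-activating protein, had 0 and 1 reads after transit, compared with 39 and 52 in controls. The log2 difference was -4.74 ± 0.49, or -5.34 without constriction replicate 2 (edgeR adjusted p = 0.027; 0.532 with the block).

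NAPA-AS1 (chr19:47484282-47501597, plus strand) was the only member whose mean was higher after transit. It overlaps the tail of NAPA, the gene of a protein that recycles membrane fusion complexes, and 52.2% of its exon length is shared with NAPA exons. It had 590 reads in constriction replicate 1, 10 in constriction replicate 2 and 15 and 10 in controls, or normalised counts of 711, 10.4, 14.7 and 7.90. Constriction replicate 2 thus lay between the 2 controls. The log2 difference of 4.88 ± 1.45 did not pass the edgeR test (adjusted p = 1), and without constriction replicate 1 it was -0.11. AC073548.1, which lies beside it on the other strand without shared exon bases, had 32 and 40 reads in controls and 0 after transit.

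In MDA-MB-231, all 7 members had a higher mean after transit, and 6 of them had both constriction libraries above both controls (85.7%, against 61.9% of all listed genes apart and higher, and 94.5% apart in either direction). Of these 6, TBX2-AS1 was apart through the size factors alone, since its replicate 2 libraries had equal read counts. None of the 7 members was called by edgeR (background 0.262%, or 1 of 381 genes), and 6 had an unadjusted p under 0.05, as had 358 of the 381 listed genes. DESeq2, limma and TMM factors called none either. The median log2 difference was 3.20 among members, 1.08 over all listed genes and 2.09 over 57 listed antisense genes without an -AS name. Without constriction replicate 1 the members' median was 1.38.

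Summed over the 7 members, 691 and 358 reads were counted after transit and 144 and 265 without it, which is 14.6 and 7.21 RPM against 3.87 and 4.95 RPM. Constriction replicate 1 was the highest of the 4 libraries for 5 of the 7 members. No sense gene of these members was listed in MDA-MB-231.

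RAET1E-AS1 (chr6:149863494-149919507, plus strand), which spans RAET1E, a gene of a ligand for the NKG2D receptor of natural killer cells, had 267 and 188 reads after transit, compared with 78 and 140 in controls. Its FPKM was 4.66 and 3.13 against 1.73 and 2.16, and the groups did not overlap. The log2 difference was 0.98 ± 0.32, and 0.57 with TMM factors (edgeR adjusted p = 1, unadjusted 0.0208).

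COL18A1-AS1 (chr21:45419716-45425070, minus strand) lies within COL18A1, the gene of a basement membrane collagen that is the source of endostatin. It had 65 and 36 reads after transit, compared with 7 and 18 in controls, with a log2 difference of 1.91 ± 0.57 (edgeR adjusted p = 1, unadjusted 0.0199). It was the 1 listed gene of the 9 annotated antisense RNAs in the extracellular matrix and adhesion list.

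PRKCA-AS1 (chr17:66398069-66416854, minus strand), within the gene of protein kinase C alpha, had 25 and 10 reads after transit and 0 in both controls, at least 5.27-fold higher. Its log2 difference was 4.16, or 3.36 without constriction replicate 1. SHANK2-AS2 (chr11:70646165-70647562, plus strand), within the gene of a synaptic scaffold protein, had 10 and 11 reads after transit and 0 in both controls, at least 3.12-fold higher. ITPK1-AS1 (chr14:93067452-93072152, plus strand), within an inositol phosphate kinase gene, had 15 and 22 reads after transit, compared with 0 and 2 in controls. For these 3, the adjusted p was 1 by edgeR, with unadjusted values of 0.00418, 0.00449 and 0.0114.

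**Figure D4:**
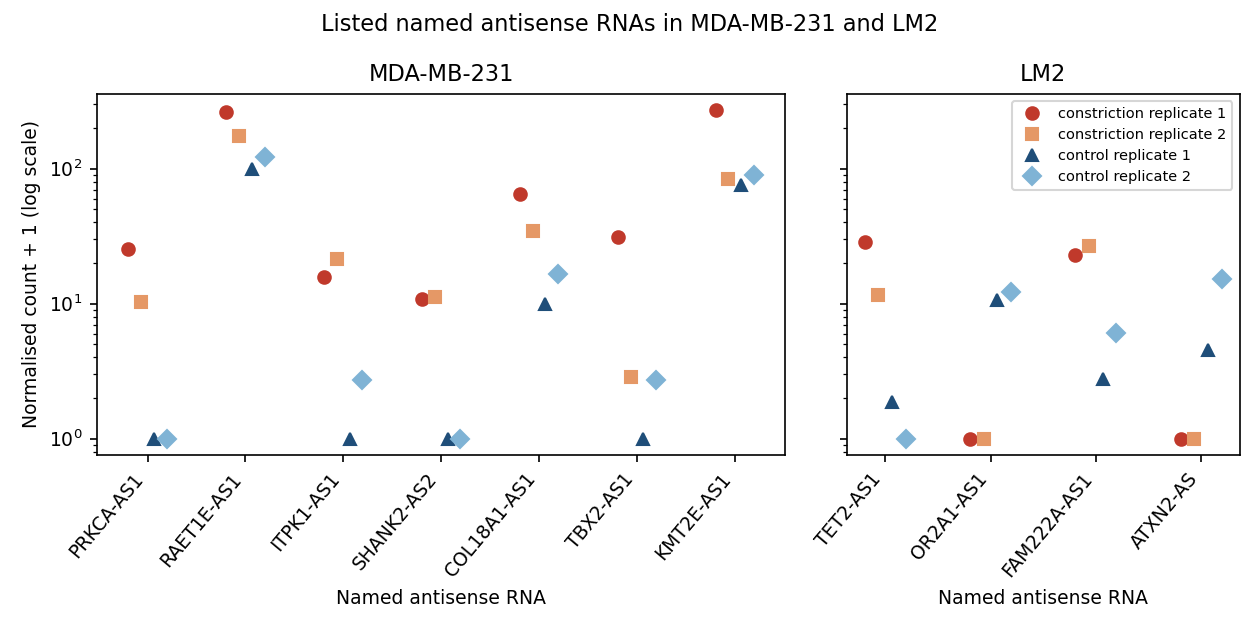
Normalised count plus 1 (log scale) of the 7 members in MDA-MB-231 and the 4 members in LM2, 1 symbol per library. In MDA-MB-231 the constriction libraries lie above the controls for all members but KMT2E-AS1, and in LM2 2 members lie above and 2 at 0 reads after transit.

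In LM2, 2 members were higher and 2 were lower after transit, and the groups did not overlap for any of the 4 (background 82.5%). None was called by edgeR (background 0.0%, or 0 of 97 genes), and 3 had an unadjusted p under 0.05, as had 40 of all 97 genes. Both lower members had 0 reads in both constriction libraries (2 of 4, against 21.6% of all listed genes). With the replicate block, OR2A1-AS1 and ATXN2-AS were called (adjusted p = 0.0167 for both, 28.9% of all listed genes called). This pairing rests on the title of a library whose description gives the other number, and with the crossed pairing, added after the data were seen, no member was called or had an unadjusted p under 0.05. DESeq2, limma and TMM factors called no member.

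OR2A1-AS1 (chr7:144300395-144356181, minus strand), which spans an olfactory receptor gene, had 11 reads in each control and 0 after transit, at least 3.28-fold lower. ATXN2-AS (chr12:111599498-111600256, plus strand), head to head with the gene of the RNA-binding protein ataxin 2, had 4 and 14 reads in controls and none in either constriction library, at least 2.79-fold lower. Their log2 differences were -3.51 ± 0.09 and -3.30 ± 0.78, the second -2.18 without control replicate 2.

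TET2-AS1 (chr4:105171354-105178063, minus strand) lies within TET2, the gene of an enzyme that oxidises methylated cytosine. It had 24 and 11 reads after transit, compared with 1 and 0 in controls, a log2 difference of 3.80 ± 0.76 (edgeR adjusted p = 1, unadjusted 0.0277). No sense gene of the LM2 members was listed in LM2.

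Members listed in 2 lines were KMT2E-AS1 and TBX2-AS1, in MCF-10A and MDA-MB-231, and FAM222A-AS1, in MCF-10A and LM2. Size factors were computed within each line, so levels across lines are given in FPKM, which was scaled to each library's total. None of the 3 was listed in the third line.

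KMT2E-AS1 (chr7:105013425-105014321, minus strand) shares 143 exon bases with the start of KMT2E, a chromatin regulator gene, and its promoter is printed above. In MCF-10A it was at 1.73 and 1.17 FPKM in controls and 0 in both constriction libraries. The control reads were 46 and 40, and it fell by the edgeR test with a log2 difference of -5.30 ± 0.25 (adjusted p = 0.0143; 0.185 with the block). In MDA-MB-231 it was at 2.15 and 2.61 FPKM in controls and at 7.97 and 2.43 FPKM after transit. There the groups overlapped, since constriction replicate 2 lay between the controls, and the log2 difference of 1.10 ± 0.78 became 0.0086 without constriction replicate 1.

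TBX2-AS1 (chr17:61393456-61411555, minus strand) spans TBX2, a T-box transcription factor gene. In MCF-10A controls it had 14 and 64 reads, or 0.321 and 1.14 FPKM, and 0 reads in both constriction libraries, a log2 difference of -5.05 ± 0.80 (edgeR adjusted p = 0.0143; 0.108 with the block). Without control replicate 2 the difference was -3.88. In MDA-MB-231 it had 31 and 2 reads after transit, compared with 0 and 2 in controls, or 0.542 and 0.0334 against 0 and 0.0309 FPKM. The log2 difference of 3.20 ± 1.37 was 0.61 without constriction replicate 1 (edgeR adjusted p = 1).

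FAM222A-AS1 (chr12:109734166-109773508, minus strand) overlaps FAM222A tail to tail, without shared exon bases. MCF-10A controls had 15 and 43 reads, or 0.389 and 0.867 FPKM, and both constriction libraries had 0 reads. The log2 difference was -4.66 ± 0.55, or -3.97 without control replicate 2. With all libraries, the edgeR adjusted p was 0.0143, and 0.0344 with the block. The call was lost with limma (adjusted p = 0.104). In LM2, 19 and 27 reads were counted after transit and 2 and 5 in controls, or 0.471 and 0.498 against 0.0364 and 0.0989 FPKM. The LM2 log2 difference was 2.50 ± 0.55 (edgeR adjusted p = 1, unadjusted 0.0721). It was 2.04 without control replicate 1 and 3.17 without control replicate 2. The difference between lines was not tested.

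**Figure D5:**
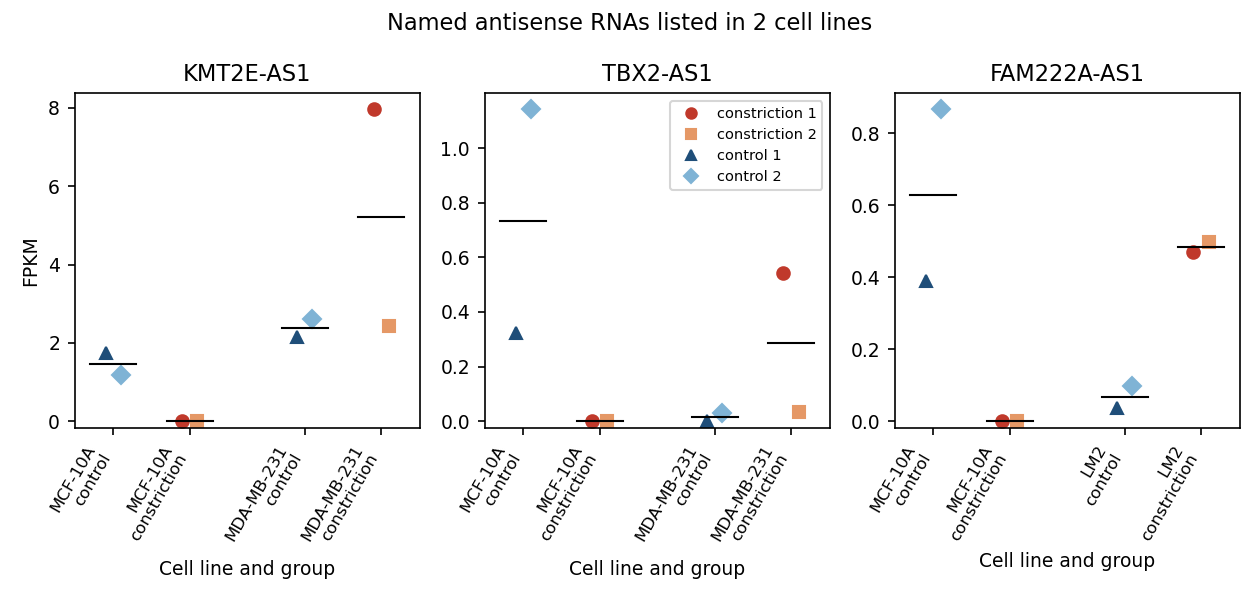
FPKM of KMT2E-AS1, TBX2-AS1 and FAM222A-AS1 in each library of the lines in which they were listed; horizontal lines are means of 2 libraries. All 3 were at 0 in both MCF-10A constriction libraries, while the means after transit were 5.20 and 0.288 FPKM for KMT2E-AS1 and TBX2-AS1 in MDA-MB-231 and 0.484 FPKM for FAM222A-AS1 in LM2.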

How the data were processed

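RNA from 12 libraries, 2 of constriction cells and 2 of control cells per cell line, was sequenced after poly A enrichment. The submitters' processing notes name fastp, HISAT2 (2.0.5), featureCounts (1.5.0-p3), DESeq2 (1.20.0) and GRCh38. The authors deposited read counts per gene and, for each line, normalised counts (signal), which are the counts divided by a size factor. The deposited FPKM values divide the counts by gene length and library total. Each table holds listed genes only. Columns of group means, log2 fold changes and p-values of the authors' comparisons, and the lists of enriched GO terms, were not used.

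All 3158 listed rows matched GENCODE 29 in identifier and position. edgeR (4.0.16, R 4.3.3) quasi-likelihood tests were fitted to the counts of all listed genes of a line with the deposited size factors. Two-sided p-values were adjusted by Benjamini-Hochberg over the 58780 genes of GENCODE 29, with genes outside a table at a p-value of 1, and called under 0.05. The log2 difference compares means of normalised counts with a pseudocount of 1, and its SE comes from the 2 libraries per group. Bounds take 3 reads per library where a group had none. Alternatives were DESeq2 (1.42.0), limma (3.58.1), TMM factors, a minimum mean normalised count of 10 and a pseudocount of 10. Further alternatives were FPKM with a pseudocount of 1, adjustment over the table alone, no adjustment, each library left out and the replicate block. The tests were checked on simulated data.

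The study's supplement gives each replicate experiment as 1 entry with its transited and untransited cells, and equal replicate numbers were therefore taken as pairs. Within such pairs, the deviations from the group mean correlated at -0.0427 (MCF-10A), 0.0827 (MDA-MB-231) and -0.0317 (LM2). For one LM2 constriction library the title says replicate 2 and the description replicate 1; the title was used.

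Named genes are all members in MDA-MB-231 and LM2 and, in MCF-10A, members with a listed sense gene, the 10 highest by mean normalised count, those with a read after transit or a higher mean, those listed in 2 tables, TGFB2-AS1 and members of 4 lists of antisense RNAs. Members named with groups of sense genes or as neighbours were chosen after their values were seen. The members and lists were chosen with earlier results of these data known.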

Additional observations from a re-analysis of the deposited data

Results flagged for a closer look

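FAM222A-AS1 and TBX2-AS1 had differences of opposite sign in 2 cell lines, with both constriction libraries on one side of both controls in each line. The log2 difference of FAM222A-AS1 was -4.66 in MCF-10A and 2.50 in LM2. For TBX2-AS1 it was -5.05 in MCF-10A and 3.20 in MDA-MB-231. In MDA-MB-231, constriction replicate 2 had the same number of reads as control replicate 2. It exceeded that control through the size factors alone, at 1.85 against 1.72 normalised counts. Without constriction replicate 1, the MDA-MB-231 difference of TBX2-AS1 was 0.61. The difference between lines was not tested for either gene.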

How the results depend on the processing

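In MCF-10A, 112 members and 2329 of all listed genes were called. The members called were 62 with DESeq2, 50 with limma, 0 with TMM factors, 42 with a minimum mean normalised count of 10 and 78 with the replicate block, under which 34 of the 112 were lost, and all listed genes called were 1469, 942, 0, 801 and 1463. Leaving out 1 library gave 0 to 0 members and 0 to 4 of all listed genes. The crossed pairing of MCF-10A and LM2, added after the data were seen, called 0 members and 5 and 0 listed genes. Of the 48 members with a mean of at least 10, a minimum that genes at 0 after transit pass through their controls alone, 47 were lower, 47 had groups apart and 46 had 0 reads after transit (87.8%, 92.9% and 79.6% of the 1209 listed genes that passed), so these counts support nothing. The MCF-10A median of -4.10 was -1.38 with a pseudocount of 10, -4.52 with TMM factors and -4.83 with the minimum. With 1 library left out it was -4.10 to -4.01. In FPKM with a pseudocount of 1 it was -0.28. The median control level of 0.218 FPKM lies below that added 1, which limits the size of any fall. TMM factors moved the median of all listed genes by -0.41 (MCF-10A), -0.41 (MDA-MB-231) and 0.25 (LM2). The NAPA-AS1 value was -0.11 without constriction replicate 1, and -0.11 to 5.86 over the libraries left out.

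In MDA-MB-231, adjustment over the table alone and no adjustment each called 6 members, and 354 and 358 of all listed genes. All listed genes called were 8 with DESeq2, 0 with limma, 9 with TMM factors, 72 with the replicate block and 0 to 8 with 1 library left out. With the minimum of 10, 2 of 3 members had groups apart (95.8% of listed genes that passed). The median of 3.20 was 1.26 with a pseudocount of 10, 0.34 in FPKM with a pseudocount of 1 and 1.10 with the minimum. With 1 library left out it was 1.38 to 3.46, the lowest without constriction replicate 1.

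In LM2, the replicate block called 2 members and 28 of all listed genes, and no adjustment 3 and 40. The 1 member with a mean of at least 10 had groups apart (82.7% of listed genes that passed), and 0 were lower or at 0 reads after transit. The LM2 median of -0.40 changed sign to 0.21 with a pseudocount of 10 and to 2.50 with the minimum. In FPKM with a pseudocount of 1 it was 0.18. With 1 library left out it was -0.78 to 0.50, the highest without control replicate 2. The cause of these changes was not tested. Depth limits the bounds: a member with few control reads could not reach a large fold against 3 reads. The LM2 median was -0.23 with TMM factors, within the spread between libraries.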
